A study of Mus musculus with 14 samples.

Results

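The 10 genes of autophagy and mitophagy described here in mouse triceps were Ulk1, Becn1, Map1lc3a, Map1lc3b, Gabarapl1, Sqstm1, Tfeb, Bnip3, Bnip3l and Fundc1. They were taken by symbol from the deposited gene table, which lists 52550 genes, and all 10 were found and passed the filter on low counts. Triceps from 14 male mice had been read by 3′-end RNA sequencing. FLExDUX4 mice, a strain built to carry an inducible human DUX4 transgene as a model of facioscapulohumeral muscular dystrophy, were set against WT littermates. Mice of each genotype either had a running wheel that they could use at will for 6 weeks or were controls without wheel running. The groups were 3 WT controls, 4 WT runners, 3 FLExDUX4 controls and 4 FLExDUX4 runners. The labels give neither the age of the mice nor a Cre driver or inducing agent, and the transgene was not analysed here. Mice are numbered by record order within a group.

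Autophagy encloses cytoplasm in a double membrane and delivers it to the lysosome. The ULK1 kinase starts the process, the Beclin 1 complex makes the lipid that recruits later factors, and ATG8 proteins such as LC3 are attached to the growing membrane. Receptors such as p62 tie cargo to ATG8 proteins, and mitophagy receptors on the outer mitochondrial membrane do the same for mitochondria. In skeletal muscle the pathway is known for clearing damaged mitochondria and for breaking down protein in fasting and disuse, and its rate cannot be read from transcript levels alone.

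None of the 10 genes differed between groups past an adjusted p of 0.05 in any of 7 comparisons (edgeR, Benjamini-Hochberg adjustment over 11088 tested genes). Of all tested genes, 0.496% were called for running in WT, 0.857% for running averaged over genotype and 0% in the other comparisons. The lack of calls among the 10 genes lies near these shares. Ulk1 came nearest to a call among the 10 genes. Its mean was 28.3 ± 9.41 CPM (read counts on a common library scale, given as mean ± SD) in WT controls and 19.8 ± 3.30 in WT runners. The edgeR adjusted p of Ulk1 was 0.409 for running in WT and 0.372 for running averaged over genotype. Over the 14 mice the coefficient of variation of the 10 genes ran from 9.63% for Map1lc3a to 25.02% for Ulk1. The median over all tested genes, which include genes of lower counts, was 31.3%. The 2 were not matched for level, so they do not show whether the 10 genes vary less than others of like level. In the comparisons of 2 groups, the 95% intervals of all 10 genes lay within a 2-fold change in either direction.

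Libraries held 3269357 to 6995811 counts, and 1 CPM was worth 3.32 to 7.77 reads, depending on the library. Counts of the 10 genes ran from 42 to 2557 per mouse. Summed CPM of 6 skeletal muscle fibre genes was 100067 to 104659 in WT controls, 69505 to 88007 in WT runners, 88737 to 101525 in FLExDUX4 controls and 69373 to 91319 in FLExDUX4 runners. Summed CPM of 13 slow fibre genes was 50.2 to 66.3 in WT controls, 149.7 to 862 in WT runners, 215 to 549 in FLExDUX4 controls and 69.1 to 1133 in FLExDUX4 runners. Between WT controls and WT runners the summed levels also did not overlap for the endothelial list (153 to 159 against 218 to 327, 1 gene called higher), the red blood cell list (441 to 955 against 1135 to 1840.5) and the nerve and Schwann cell list (31.6 to 40.6 against 47.3 to 73.1). In the FLExDUX4 groups the fibre, slow fibre, endothelial, red blood cell and nerve lists overlapped. The macrophage, fibroblast, tendon, satellite cell and adipocyte lists overlapped between controls and runners of each genotype, and no gene of the 10 cell type lists was at 0 throughout. Between WT controls and FLExDUX4 controls the tendon list did not overlap (43.6 to 84.8 against 98.0 to 201). Nor did the endothelial list (153 to 159 against 183 to 218) or the slow fibre list, while the other lists did. The mitochondrial share of counts averaged 24.04% in WT controls and 31.8% in WT runners. These groups did not overlap (20.9 to 26.4% against 27.0 to 36.6%). The exact permutation p was 0.0571 (2-sided, adjusted p = 0.114 over 6 tests), the smallest value this test can give for 3 against 4 mice. In the FLExDUX4 groups the share averaged 26.2% and 33.2% (exact permutation p = 0.171, adjusted p = 0.257), with overlap. Library totals did not overlap in WT either (3269357 to 4670830 in controls, 4721606 to 6092676 in runners, exact permutation p = 0.0571). Added spike-in RNA took 1.28 to 1.53% of reads in WT controls and 0.963 to 1.32% in the other groups. The part of these measures in the values below was not tested, except where a value is given. In whole muscle, fewer cells of a type and less RNA per cell cannot be told apart.

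Because each transcript gives reads at its 3′ end only, levels of different genes were compared in CPM without division by length. Sqstm1 was the most abundant of the 10, at 292 ± 31.9 CPM over all 14 mice, and its lowest mouse lay above the highest mouse for Map1lc3a (214 to 333 against 151 to 199.8). Map1lc3a averaged 179.8 ± 17.3 CPM and Bnip3 155 ± 16.1 CPM. Their ranges overlapped, yet Map1lc3a was above Bnip3 in 14 of 14 mice. Map1lc3b followed at 92.1 ± 9.61 CPM, below Bnip3 in 14 of 14 mice. The other 6 genes formed a lower band with overlapping ranges: Becn1 averaged 25.9 CPM, Tfeb 25.8, Gabarapl1 24.8, Ulk1 24.4, Fundc1 21.9 and Bnip3l 16.2. From Becn1 to Fundc1 the means of neighbours in this order differed by less than their SDs over mice, and Bnip3l lay below Fundc1 by more than its SD of 3.47, with overlapping ranges.

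**Figure D1:**
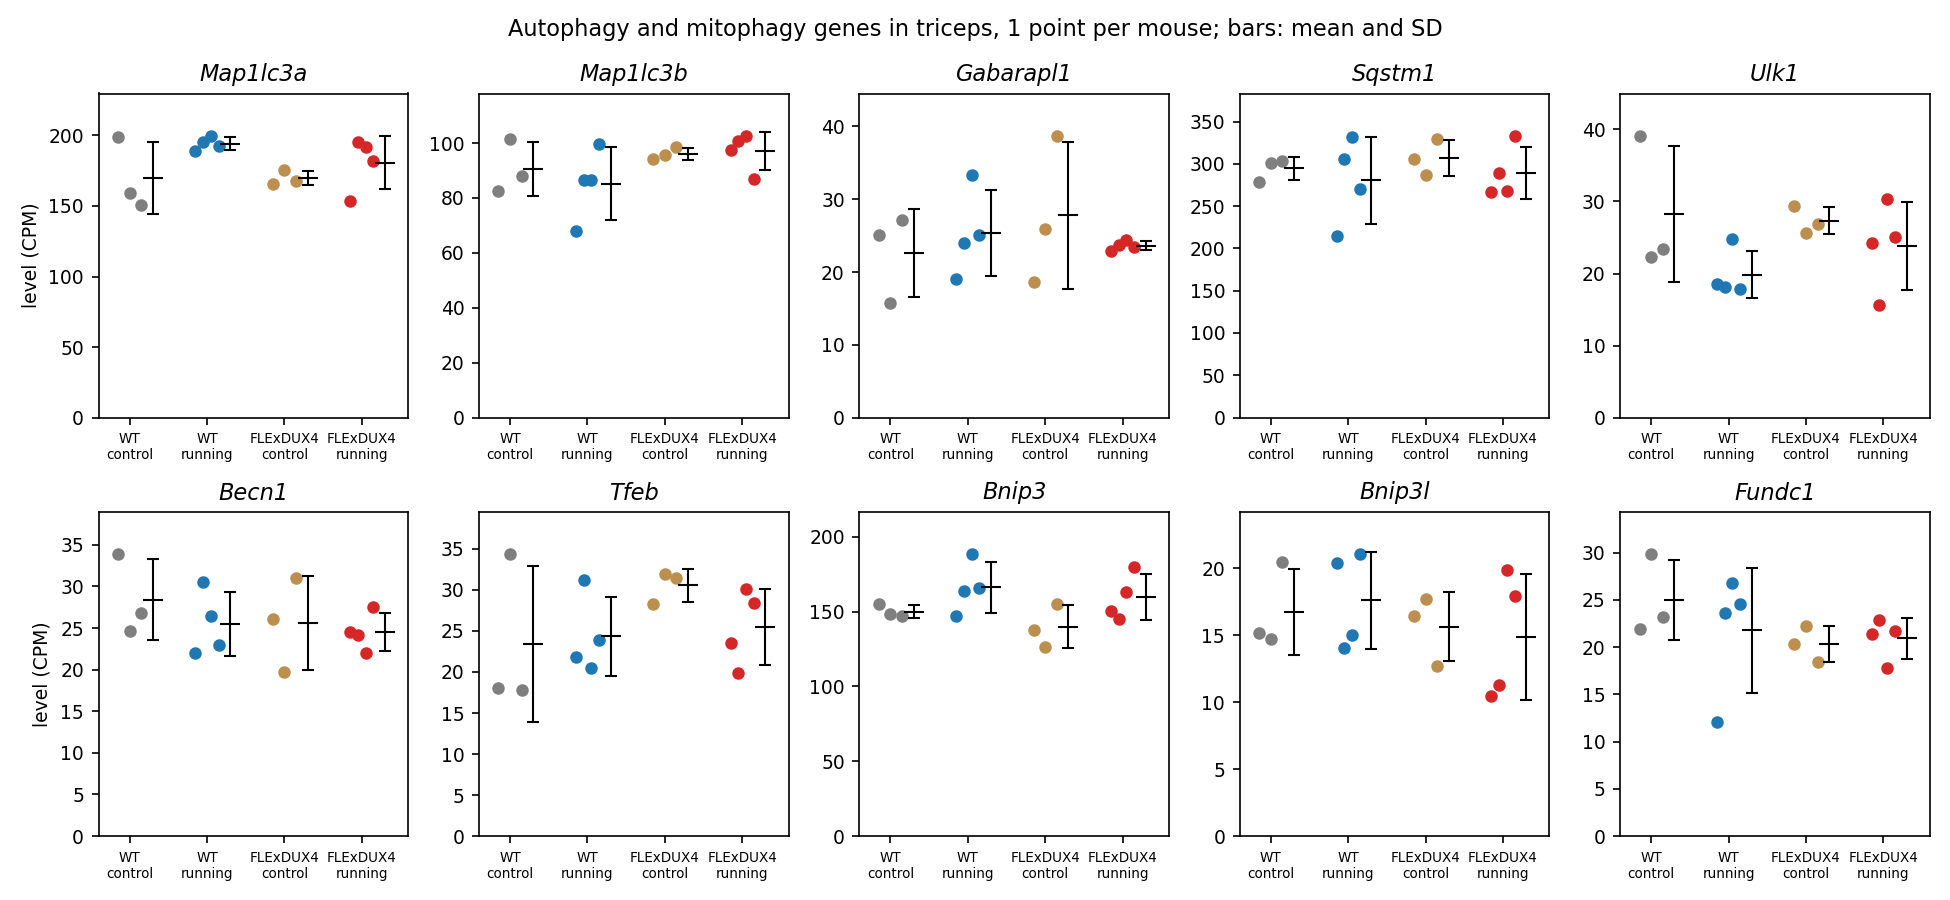
Level in CPM (vertical axis, from 0) of each of the 10 genes in the 4 groups, with 1 point per mouse and the group's mean and SD as a bar. The groups overlap in every panel, and for Ulk1 the WT runners sit between 17.9 and 24.8 CPM, a range that also holds 2 of 3 WT controls.

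Ulk1 (chr5:110784488-110810097, minus strand; positions are on GRCm38 and all 10 genes are protein-coding) encodes the kinase that starts autophagosome formation and that AMPK and mTORC1 both phosphorylate. Its level was 39.1, 22.3 and 23.5 CPM in the 3 WT controls and 18.6, 18.1, 24.8 and 17.9 CPM in the 4 WT runners. WT control 1 stood above the rest, and WT running 3 lay above the other WT controls, so the groups overlapped. FLExDUX4 controls had 29.4, 25.7 and 26.9 CPM and FLExDUX4 runners 24.3, 15.6, 30.4 and 25.1 CPM, again with overlap. The log2 fold change of runners against controls was -0.52 ± 0.23 in WT (SE of the fit, 95% interval -0.99 to -0.04) and -0.19 ± 0.23 in FLExDUX4. The WT value had an unadjusted p of 0.0336 and an adjusted p of 0.409, and 10.7% of all tested genes had an unadjusted p under 0.05 there. Averaged over genotype, Ulk1 had a log2 fold change of -0.36 ± 0.17 (unadjusted p = 0.0385, edgeR adjusted p = 0.372), where 12% of all tested genes had an unadjusted p under 0.05. The difference between the running effects of the genotypes was 0.32 ± 0.33 (edgeR adjusted p = 0.976). The WT value rested much on WT control 1: without it, the log2 fold change was -0.21 (edgeR unadjusted p = 0.430, adjusted p = 0.901). Over all 23 alternatives the adjusted p for Ulk1 in WT ran from 0.230 to 0.901.

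Becn1 (chr11:101285952-101302286, minus strand), which encodes Beclin 1, the scaffold of the lipid kinase complex of autophagy, is also held in check by BCL2. Its mean was 28.4 ± 4.83 CPM in WT controls, 25.5 ± 3.87 in WT runners, 25.6 ± 5.67 in FLExDUX4 controls and 24.6 ± 2.27 in FLExDUX4 runners. Single mice lay from 19.7 to 33.9 CPM, with the lowest and the highest both among controls. Runners differed from controls by a log2 fold change of -0.16 ± 0.21 in WT and -0.06 ± 0.21 in FLExDUX4, and FLExDUX4 controls from WT controls by -0.14 ± 0.23. All 3 intervals include 0, and that for running in WT reached from -0.59 to 0.27.

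The ATG8 proteins are small ubiquitin-like proteins that are joined to lipid on the autophagosome, and 3 of the 10 genes encode members of this family. Map1lc3a (chr2:155276297-155278073, plus strand), encoding LC3A, had 199, 159 and 151 CPM in WT controls and 189, 195, 199.8 and 192 CPM in WT runners. The WT runners lay close together, and 2 of 3 WT controls were below all of them while WT control 1 fell among them. FLExDUX4 controls had 166, 176 and 168 CPM and FLExDUX4 runners 154, 195, 192 and 182 CPM, with FLExDUX4 running 1 below every FLExDUX4 control. The log2 fold change with running was 0.19 ± 0.14 in WT (95% interval -0.09 to 0.47, edgeR adjusted p = 0.702) and 0.09 ± 0.14 in FLExDUX4. The genotypes' controls differed by 0.00 ± 0.15. Scaled to the spike-in RNA instead, which raised the median log2 fold change of all genes by running in WT to 0.37, Map1lc3a reached 0.56 with an adjusted p of 0.0401, the only call of any of the 10 genes under the alternatives tried. Its adjusted p over 23 alternatives ran from 0.0401 to 0.913.

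Map1lc3b (chr8:121590361-121598760, plus strand) encodes LC3B, the form most used to mark autophagosomes. Its mean was 90.6 ± 9.84 CPM in WT controls, 85.3 ± 13.1 in WT runners, 96.1 ± 2.15 in FLExDUX4 controls and 96.9 ± 6.93 in FLExDUX4 runners. WT running 1 was the lowest mouse, at 67.9 CPM, and the other 13 lay between 82.5 and 103 CPM. Runners stood against controls at a log2 fold change of -0.09 ± 0.15 in WT and 0.01 ± 0.15 in FLExDUX4, neither of which passed the test. GENCODE M21 places the 3′ end of Map1lc3b over that of Zcchc14 on the opposite strand, which held 724 counts in all, and the strand setting of the counting is not given in the sources used here. Opposite-strand genes that overlap Sqstm1 (Mrnip), Gabarapl1 (1700101I11Rik) and Becn1 (Cntd1) held 84, 12 and 6 counts.

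Gabarapl1 (chr6:129533160-129542346, plus strand) encodes an ATG8 protein of the GABARAP branch and is known as a FOXO target in muscle. It had 25.03, 15.8 and 27.1 CPM in WT controls and 18.998, 23.97, 33.3 and 25.1 CPM in WT runners. FLExDUX4 controls spread from 18.7 to 38.7 CPM, whereas FLExDUX4 runners spread from 22.9 to 24.4 CPM. The log2 fold change with running was 0.17 ± 0.24 in WT and -0.25 ± 0.24 in FLExDUX4, and the difference between these, -0.42 ± 0.34, was the lowest interaction of the 10 genes (95% interval -1.11 to 0.27, edgeR adjusted p = 0.976). Leaving out 1 mouse moved this value from -0.63 (without FLExDUX4 control 1) to -0.09 (without FLExDUX4 control 3), and it was -0.22 without WT control 2 and -0.27 without WT running 3.

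Among the counts of the 5 ATG8 genes measured, Map1lc3a made up 48.3% on average over the 14 mice, Map1lc3b 24.8%, Gabarap 13.5%, Gabarapl2 6.80% and Gabarapl1 6.65%. By group, the Map1lc3a share was 47.8% in WT controls, 50.5% in WT runners, 46.6% in FLExDUX4 controls and 47.6% in FLExDUX4 runners. The family was thus led by LC3A transcripts in every group. The ratio of Map1lc3a to Map1lc3b counts averaged 2.32 ± 0.35 in WT runners and 1.90 ± 0.45 in WT controls, and 1.87 ± 0.22 and 1.77 ± 0.07 in FLExDUX4 runners and controls. The ranges of these ratios overlapped within each genotype (1.93 to 2.78 against 1.57 to 2.41 in WT).

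Sqstm1 (chr11:50199366-50210827, minus strand) encodes p62, the receptor that ties ubiquitin-marked cargo to ATG8 proteins and is itself degraded by autophagy. It had 279, 301 and 304 CPM in WT controls, 214, 306, 332 and 269.7 CPM in WT runners, 306, 287 and 329 CPM in FLExDUX4 controls and 267, 289.6, 268 and 333 CPM in FLExDUX4 runners. WT running 1 was the lowest mouse and FLExDUX4 running 4 the highest, and the groups overlapped in each of the 4 pairs. The log2 fold change with running was -0.07 ± 0.14 in WT and -0.08 ± 0.14 in FLExDUX4, and with genotype in controls 0.06 ± 0.15. With the highest counts of the 10 genes, Sqstm1 also had one of the narrower intervals (-0.36 to 0.22 for running in WT).

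Tfeb (chr17:47737030-47792419, plus strand) encodes a transcription factor that drives lysosomal and autophagy genes once it enters the nucleus. WT controls had 18.1, 34.4 and 17.8 CPM, so that WT control 2 alone stood apart from the other WT controls. The values were 21.8, 31.3, 20.5 and 23.9 CPM in WT runners, 28.3, 31.9 and 31.5 CPM in FLExDUX4 controls and 23.5, 19.9, 30.1 and 28.4 CPM in FLExDUX4 runners. Among controls, FLExDUX4 differed from WT by a log2 fold change of 0.38 ± 0.25, the highest of the 10 genes in that comparison (95% interval -0.12 to 0.88, edgeR adjusted p = 0.972), and averaged over running by 0.22 ± 0.16. Running gave 0.05 ± 0.23 in WT and -0.26 ± 0.23 in FLExDUX4. WT control 2 lay above all FLExDUX4 controls, so the groups overlapped. The genotype difference in controls moved with single WT controls: it was 0.77 without WT control 2 (edgeR unadjusted p = 0.00673, adjusted p = 0.999), 0.22 without WT control 1 and 0.23 without WT control 3. Averaged over running it ran from 0.14 to 0.42 when 1 mouse was left out. The adjusted p for Tfeb in controls ran from 0.277 to 1.00 over 23 alternatives.

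Bnip3 (chr7:138890836-138909519, minus strand) encodes a mitophagy receptor known as a target of the hypoxia-inducible factor and of FOXO3 in muscle. Its level was 155, 148 and 147 CPM in WT controls and 147, 164, 188 and 166 CPM in WT runners, of which 3 of 4 lay above all WT controls. FLExDUX4 controls had 138, 127 and 155 CPM and FLExDUX4 runners 150.3, 145, 163 and 179.6 CPM, of which 2 of 4 lay above all FLExDUX4 controls. The log2 fold change with running was 0.15 ± 0.14 in WT, 0.19 ± 0.14 in FLExDUX4 and 0.17 ± 0.10 averaged over genotype, the highest of the 10 genes in the last comparison (95% interval -0.03 to 0.37, edgeR adjusted p = 0.520). Scaled to the spike-in RNA, the average reached 0.37 with an adjusted p of 0.0545 (0.0545 to 0.657 over 22 alternatives), while the median of all genes moved to 0.21.

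The stretch of the Bnip3 promoter that holds its E-box (CACGTG, the core of the element that TFEB binds) is shown because the hypoxia and TFEB motifs searched lie together there, and a stretch of the Map1lc3b promoter is shown beside it because it holds the hypoxia motif and no E-box. Both are RefSeq sequences on GRCm38.p6, written 5′ to 3′ on the gene's own strand, with matches to CACGTG and to GCGTG or its reverse complement CACGC in capitals. The Bnip3 stretch is chr7:138909569-138909653 on the minus strand, 147 to 63 bases before the transcript start. The Map1lc3b stretch is chr8:121590225-121590289 on the plus strand, 213 to 149 bases before the start.
Bnip3: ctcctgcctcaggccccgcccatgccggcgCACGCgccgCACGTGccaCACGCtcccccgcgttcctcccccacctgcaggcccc
Map1lc3b: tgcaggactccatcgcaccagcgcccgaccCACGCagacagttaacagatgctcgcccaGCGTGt
Promoters were found for 7 of the 10 genes, not for Map1lc3a, Becn1 or Bnip3l, and the 250 bases before each start were searched on both strands. These 7 genes have 9 promoters, and a gene is named below if any of its promoters matched. The shares count single promoters, so genes and shares are not in like units. CACGTG was found in Bnip3 alone, and in 6.02% of all 32851 promoters. ACGTG, which overlaps CACGTG, was found in Bnip3 alone and in 16.6% of all promoters. GCGTG was found in Bnip3, Map1lc3b, Tfeb and Ulk1, and in 28.2% of all promoters. The FOXO motif TGTTTAC was found in none of the 7 genes and in 3.17% of all promoters. Matches describe these windows and are no evidence of binding.

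Bnip3l (chr14:66985239-67008877, minus strand) encodes NIX, the mitophagy receptor closely related to BNIP3, and was the least abundant of the 10 genes. Its mean was 16.8 ± 3.21 CPM in WT controls, 17.6 ± 3.61 in WT runners, 15.6 ± 2.59 in FLExDUX4 controls and 14.9 ± 4.70 in FLExDUX4 runners. Single runners had 20.4, 14.03, 15.02 and 21.1 CPM in WT and 10.5, 11.3, 19.9 and 17.96 CPM in FLExDUX4, too few mice to show a grouping. Among runners, FLExDUX4 differed from WT by a log2 fold change of -0.24 ± 0.25, the lowest of the 10 genes (95% interval -0.75 to 0.26, edgeR adjusted p = 0.999). Running gave 0.08 ± 0.27 in WT and -0.06 ± 0.27 in FLExDUX4. Bnip3 counts exceeded Bnip3l counts by a mean ratio of 9.17 ± 1.72 in WT controls, 9.83 ± 2.66 in WT runners, 9.24 ± 2.61 in FLExDUX4 controls and 11.3 ± 2.74 in FLExDUX4 runners.

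Fundc1 (chrX:17556564-17572325, minus strand) encodes a mitophagy receptor that is active under low oxygen. WT controls had 21.9, 29.8 and 23.2 CPM and WT runners 12.1, 23.6, 26.8 and 24.6 CPM. WT running 1 was the lowest of all 14 mice, as it was for Sqstm1 and Map1lc3b. FLExDUX4 controls had 20.3, 22.2 and 18.4 CPM and FLExDUX4 runners 21.4, 22.9, 17.8 and 21.7 CPM. The log2 fold change was -0.20 ± 0.24 for running in WT, 0.05 ± 0.24 for running in FLExDUX4 and -0.30 ± 0.26 for genotype in controls, the lowest of the 10 genes in the last comparison (edgeR adjusted p = 0.984). Averaged over running, the genotype difference was -0.18 ± 0.17, also the lowest.

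**Figure D2:**
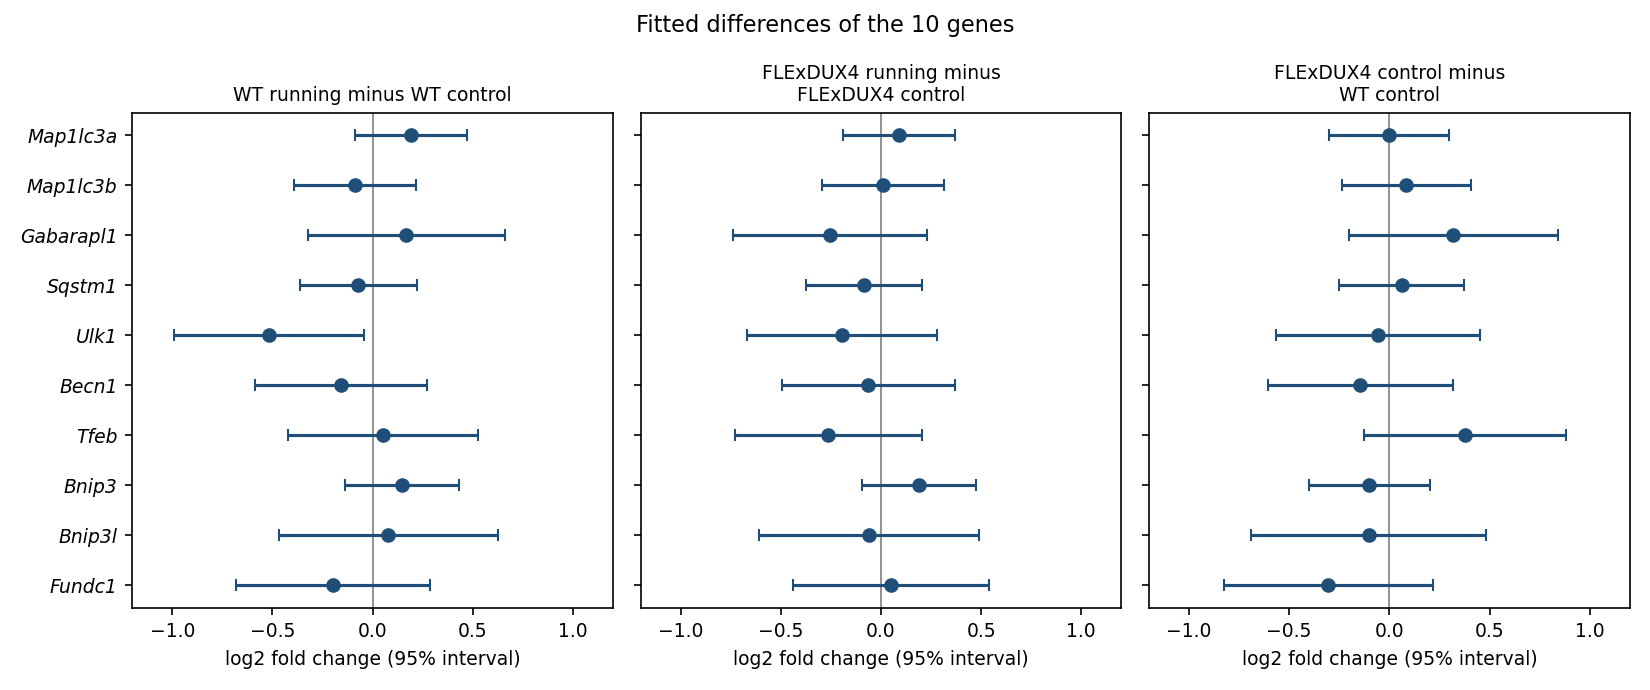
Log2 fold changes (horizontal axis) of the 10 genes with 95% intervals from the edgeR fit, for running in WT, running in FLExDUX4 and genotype in controls. Every interval but that of Ulk1 for running in WT, which ends at -0.04, includes 0.

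Over the comparisons, the calls at an adjusted p under 0.05 were 0 of 10 for running in WT, where 0.496% of all tested genes were called, and 0 of 10 for running averaged over genotype, where 0.857% were. No gene at all was called for running in FLExDUX4, for genotype in controls, in runners or averaged, or for the interaction (0% in each). An unadjusted p under 0.05 was found for 0 of 10 genes in these 5 comparisons, against 6.66% of all tested genes for running in FLExDUX4, 5% for genotype in controls, 3.16% in runners, 3.77% averaged over running and 4.84% for the interaction. With spike-in library sizes such a p was found for 4 of 10 genes for genotype in controls, where 1524 of 11088 tested genes had one. It was found for 2 of 10 genes for genotype averaged over running (811 of 11088 tested genes) and 1 of 10 for the interaction (1147 of 11088). In these 3 comparisons the median of all genes moved to 0.31, 0.14 and -0.32. Without WT control 2 such a p was found for 1 of 10 in each of the 3, and for 549, 460 and 527 of 11575 tested genes. In none of the 10 genes did all mice of a group lie beyond all mice of the group compared, in any of the 4 pairs of groups. Among all tested genes this was so for 10.3% for running in WT, 7.17% for running in FLExDUX4, 11.4% for genotype in controls and 2.51% for genotype in runners. As 1 gene of 10 is a larger step than most of these shares, 0 of 10 lies near the backgrounds.

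Fold changes of the 10 genes were also centred near those of all genes. The median log2 fold change was -0.01 for running in WT (all tested genes 0.01), -0.06 for running in FLExDUX4 (0.01), -0.03 for genotype in controls (0.00) and -0.05 for genotype in runners (-0.01). Above 0 lay 5, 4, 5 and 4 of the 10 genes in these comparisons. In these 4 comparisons the lowest bound of any interval was -0.99, for Ulk1 with running in WT, and the highest was 0.88, for Tfeb with genotype in controls. Intervals stayed within a 1.5-fold change for 5 of 10 genes for running in WT, 6 for running in FLExDUX4, 5 for genotype in controls and 8 for genotype in runners. The half-widths of the intervals ran from 0.26 to 0.59 in these comparisons.

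The pathway was set out in 10 lists with 119 genes in all, the 10 genes among them. Of the 109 others, 107 were tested. Atg9a and Nipsnap1, with 19 and 17 counts in all, were too low to test. No pathway gene was called in any comparison. The largest share of all tested genes called was 0.857%, for running averaged over genotype. The lack of calls among the 117 tested pathway genes lies near that share. For running averaged over genotype, 2 of the 117 tested genes had an unadjusted p under 0.05 and were higher in runners and 5 were lower, while 12% of all tested genes had such a p. The median over the 117 genes was -0.03, and over all tested genes 0.01.

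Initiation genes (5 tested) had a median log2 fold change of -0.21 with running averaged over genotype, with Ulk1 and its relative Ulk2 (-0.21 ± 0.15, edgeR adjusted p = 0.643) lowest in p. In the Beclin 1 complex (9 tested, median -0.03), Ambra1, a Beclin 1 partner, stood at 0.48 ± 0.29 and Bcl2, which binds Beclin 1, at -0.31 ± 0.27. Lipid transfer and membrane supply genes (8 tested, median -0.02) had Atg2a at -0.36 ± 0.30 and Tmem41b at -0.22 ± 0.22. These are values of uncalled genes, chosen as the 2 of each list with the smallest p. The ATG8 conjugation genes (11 tested, median 0.01) had the protease gene Atg4b at 0.22 ± 0.21 and Atg10, an E2-like enzyme, at 0.19 ± 0.31.

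Of the ATG8 family (5 tested, median 0.02), Gabarap had the smallest p, with 44.6 ± 0.271 CPM in WT controls, 56.4 ± 8.41 in WT runners, 47.1 ± 7.43 in FLExDUX4 controls and 51.6 ± 2.06 in FLExDUX4 runners, a log2 fold change of 0.24 ± 0.12 averaged over genotype (edgeR adjusted p = 0.424). Among cargo receptor genes (13 tested, median 0.03), the smallest p belonged to the reticulum receptor genes Retreg1 at 0.22 ± 0.11 and Rtn3 at 0.22 ± 0.15. Neither had the highest fold change of that list. For Retreg1 the genotype difference averaged over running was 0.31 ± 0.11 (edgeR unadjusted p = 0.00660, adjusted p = 0.998), and among runners it was 0.30 ± 0.14 (edgeR unadjusted p = 0.0382, adjusted p = 0.999). Fusion genes (14 tested) had a median of -0.17, with 2 of 14 above 0, and Stx17, the SNARE of the autophagosome, stood at -0.31 ± 0.19 and the tethering subunit gene Vps39 at -0.39 ± 0.30. Upstream kinase and FOXO genes (17 tested, median -0.11) had Deptor, an inhibitor of mTOR, at -0.31 ± 0.12 (edgeR adjusted p = 0.251) and the stress gene Sesn1 at -0.44 ± 0.25.

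The pathway genes nearest to a call were Phb2 and Ctsb. Phb2 encodes prohibitin 2, an inner membrane protein that serves as a mitophagy receptor, and had 81.3 ± 11.04 CPM in WT controls, 113 ± 7.60 in WT runners, 78.7 ± 12.9 in FLExDUX4 controls and 93.6 ± 5.58 in FLExDUX4 runners. Its log2 fold change averaged over genotype was 0.36 ± 0.11 (edgeR adjusted p = 0.0874), and with DESeq2 the adjusted p was 0.0324, within a range of 0.0104 to 0.266 over 22 alternatives. The mitochondrial share of counts, given above, was also higher on average in runners, and its part in the Phb2 value was not tested. Ctsb encodes the lysosomal protease cathepsin B and had 101 ± 5.93 CPM in WT controls, 128 ± 16.8 in WT runners, 97.7 ± 1.94 in FLExDUX4 controls and 124 ± 14.01 in FLExDUX4 runners. For Ctsb the averaged log2 fold change was 0.34 ± 0.10 (edgeR adjusted p = 0.0980), and the adjusted p was 0.0365 with DESeq2, within 0.00899 to 0.222 over 22 alternatives. In the same lysosomal list (23 tested, median -0.03), Neu1, a lysosomal sialidase, stood at -0.64 ± 0.24 (edgeR adjusted p = 0.216), so values in both directions occurred.

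**Figure D3:**
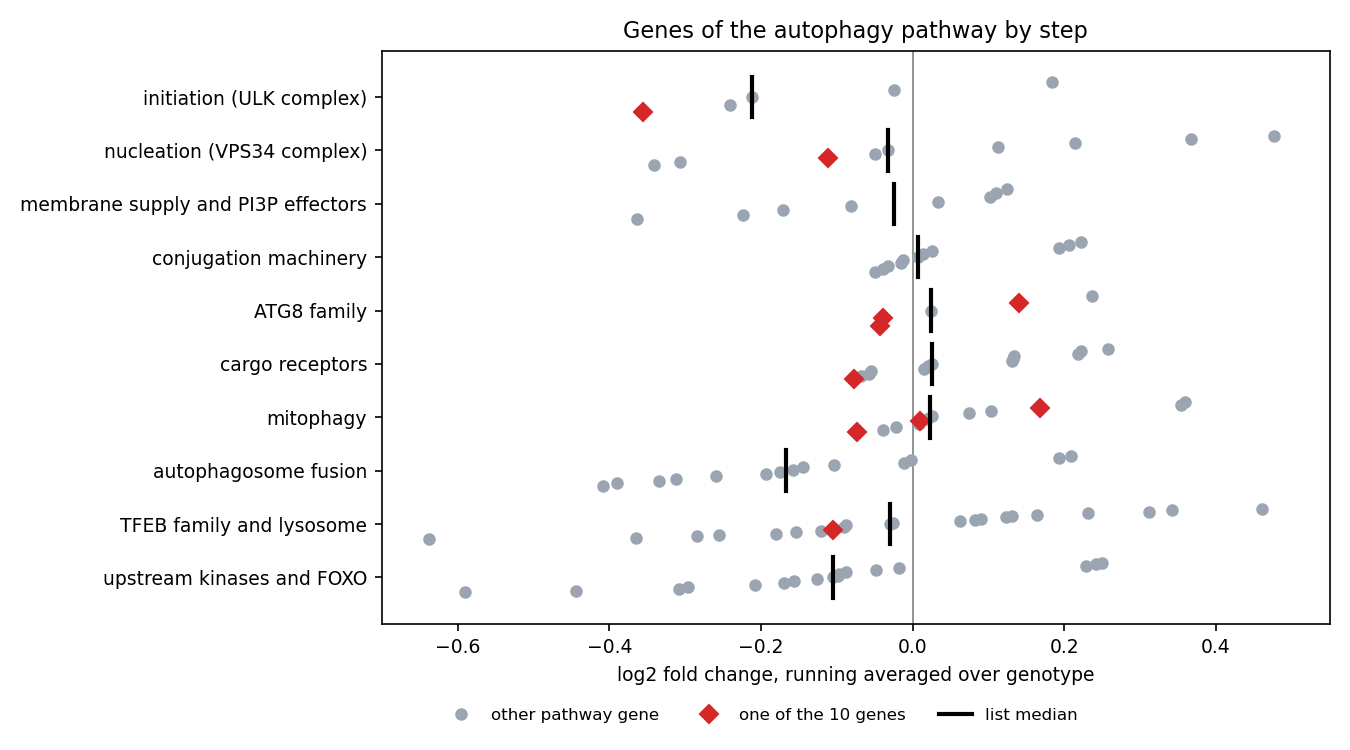
Log2 fold change for running averaged over genotype (horizontal axis) of the 117 tested pathway genes, 1 point per gene in rows by pathway step, with the list median as a black bar and the 10 genes as red diamonds. List medians lie between -0.21 for initiation and 0.03 for cargo receptors.

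As a description over the 14 mice, which share a platform and differ in depth, log2 levels of the 10 genes moved together only loosely: over the 45 pairs the median Pearson r was 0.06, from -0.35 to 0.65, with the highest for Sqstm1 and Fundc1, both low in WT running 1. By Spearman's rho that pair stood at 0.33 and the highest pair was Sqstm1 and Becn1 (0.65), and with group means removed the highest Pearson r was 0.74, for Sqstm1 and Bnip3. Against the summary level of the slow fibre list (mean of its log2 CPM), r was -0.53 for Sqstm1, -0.50 for Becn1, -0.44 for Fundc1 and -0.42 for Ulk1, and between -0.21 and 0.17 for the other 6 genes. Among 7344 genes with at least 5 CPM, the gene most like Ulk1 over the 14 mice was Psmd8 (r = 0.91), followed by Eml1 and Keap1 (both 0.85). Bnip3 was most like Ambra1 (r = 0.81), Map1lc3b most like Kansl1 (0.87), Sqstm1 most like Usp4 (0.85) and Map1lc3a most like Tmed3 (0.84). For Fundc1 it was Cnst (0.85), for Tfeb Pdcd2l (0.84), for Becn1 Smox (0.84), for Gabarapl1 Odc1 (0.83) and for Bnip3l Chd1l (0.78). The highest of 7344 values of r over 14 mice is large by selection, and these names are a description only.

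In the authors' deposited table of 6 group comparisons, none of the 10 genes had an adjusted p under 0.05. Its smallest value among them was 0.127, for Ulk1 between WT controls and WT runners, with a log2 fold change of 0.45 that is positive because the table there sets controls over runners. No adjusted p is given there for 2 of the 10 genes in that comparison. The same holds for 2 genes between FLExDUX4 controls and WT runners, and for 1 between FLExDUX4 runners and WT controls. The share of all genes called in the authors' comparisons was not counted here. The lack of calls therefore has no background beside it and shows nothing particular to the 10 genes.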

How the data were processed

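Per the labels' protocols, RNA from triceps of 14 mice was made into QuantSeq FWD libraries, which read transcript 3′ ends, and single 75-base reads were sequenced by Lexogen. Per the submitters' processing notes, cutadapt 1.16, FastQC 0.11.7, STAR 2.5.3a, featureCounts 1.6.2 and DESeq2 were used, and GRCm38 and GRCh38 are the builds named. Which annotation release was counted, whether strand was used, and what was done with multiply aligned reads is not given in the sources used here. The authors deposited raw read counts per gene and mouse, not normalized, and beside them log2 fold changes and p-values (unadjusted and adjusted) of 6 group comparisons. No molecular identifiers are in the files used, so depth gives counting error only.

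From the counts, 99 spike-in rows were set aside. edgeR 4.0.16 in R 4.3.3 scaled libraries by TMM, kept 11088 of 52550 genes by filterByExpr (minimum count 10), and fitted 1 robust quasi-likelihood model with a mean for each of 4 groups, with 7 contrasts and Benjamini-Hochberg adjustment at 0.05. The common biological coefficient of variation was 0.288. CPM used TMM-scaled library sizes. Each standard error is the fold change divided by the square root of its F statistic, and 95% intervals use the fit's degrees of freedom. Correlations used log2 CPM with a prior count of 2. No 2 replicates agreed within sampling noise (lowest chi-square per degree of freedom 5.46). The labels do not say how mice were housed or processed together. Their animal numbers have fewer digits for WT control 1 and WT running 1 than for every other mouse. What this reflects is not stated, and its part in the values of these mice was not tested. Fits were tested on simulated data.

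The 10 genes, the pathway and marker lists and the alternatives were chosen with earlier results of these data known. All 10 genes are described. Of other pathway genes, each called gene and the 2 with the smallest p for running averaged over genotype in each list are named. For likeness, the genes of highest Pearson r among those of at least 5 CPM are named, except those with a provisional Gm or Rik symbol. Alternatives were DESeq2 1.42.0, limma-voom (limma 3.58.1), RLE factors, spike-in library sizes, no filter, a filter of 1 CPM in 3 libraries, only the 2 groups compared, each mouse left out, the pair FLExDUX4 control 1 and WT running 2 left out, and counts without mitochondrial genes and Gm42418. Promoters came from RefSeq on GRCm38.p6 and loci from GENCODE M21, whose starts equalled those of the deposited table for all 10 genes.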

Additional observations from a re-analysis of the deposited data

Results flagged for a closer look

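Ulk1 in WT running 3 stood at 24.8 CPM, while the other WT runners lay between 17.9 and 18.6 CPM. Its gap to the next mouse, divided by the range of the 4 WT runners, was 0.894, above Dixon's 95% critical value for 4 samples. This was the only such value in 20 groups of 4 mice, and chance gives about 1 in 20. Without WT running 3, the log2 fold change of Ulk1 by running in WT was -0.64 (edgeR adjusted p = 0.230, the smallest for Ulk1 in that comparison over 23 alternatives, the largest being 0.901).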

How the results depend on the processing

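Outside the spike-in scaling, 0 of the 10 genes was called in any comparison over 23 settings, the main one included, and the smallest adjusted p was 0.230 (edgeR, Ulk1 with running in WT, without WT running 3). Spike-in library sizes moved the median log2 fold change of all genes by running in WT from 0.01 to 0.37, raised the calls there from 55 (44 of them higher in runners) to 604 (602 higher), and called 1 of the 10 genes, Map1lc3a (0.558). Under that scaling the log2 fold change by running in WT turned positive for Map1lc3b (0.259), Sqstm1 (0.274), Becn1 (0.198) and Fundc1 (0.133), and by running in FLExDUX4 for Becn1 (0.000453). For genotype in controls it turned positive for Ulk1 (0.257), Becn1 (0.148), Bnip3 (0.201), Bnip3l (0.217) and Fundc1 (0.00424), and the interaction of Ulk1 became -0.000937. The same scaling gave 430 calls for running averaged over genotype (419 higher, against 61 of 95), 2 for genotype in controls and 1 for the interaction. The cause was not tested.

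The number of calls over the whole table varied between settings. A count over 10 genes is too small to set against it, so the counts do not show which varied more. With DESeq2 there were 196 for running in WT, 273 for running averaged, 3 for genotype in controls and 1 for genotype averaged; limma-voom gave 23 for running in WT. Without the filter on low counts there were 217 for running in WT, 24 for running in FLExDUX4, 12 for genotype in controls, 2 for genotype in runners, 11 for the interaction, 291 for running averaged and 8 for genotype averaged. Fits to only the 2 groups compared gave 6 for running in FLExDUX4 and 23 for genotype in controls. Without FLExDUX4 control 1 and WT running 2 together there were 24 for running averaged. Leaving out each mouse in turn gave 0 to 197 for running in WT, 0 to 2 for running in FLExDUX4, 0 to 3 for genotype in controls, 0 to 1 for the interaction, 0 to 2 for genotype averaged, and 17 (without FLExDUX4 control 1) to 286 (without FLExDUX4 running 4) for running averaged. Phb2 and Ctsb were called for running averaged over genotype with DESeq2 (0.352 and 0.335) and with spike-in library sizes (0.552 and 0.546), and Ctsb also without FLExDUX4 running 4 (0.373).

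Of 38 fold changes reported for the 10 genes, 15 changed sign in at least 1 fit without a mouse. Ranges over these fits for running in WT were -0.173 to 0.00616 for Map1lc3b, -0.0384 to 0.313 for Gabarapl1, -0.161 to 0.0378 for Sqstm1, -0.112 to 0.443 for Tfeb and -0.0191 to 0.240 for Bnip3l. For running in FLExDUX4 they were -0.0184 to 0.0588 for Map1lc3b, -0.465 to 0.0797 for Gabarapl1, -0.211 to 0.1104 for Becn1, -0.214 to 0.0809 for Bnip3l and -0.0182 to 0.127 for Fundc1. For genotype in controls they were -0.0733 to 0.128 for Map1lc3a, -0.0122 to 0.533 for Gabarapl1, -0.204 to 0.255 for Ulk1, -0.316 to 0.00733 for Becn1 and -0.207 to 0.0596 for Bnip3l. Map1lc3b with running in FLExDUX4 was -0.00294 with DESeq2, -0.00145 with RLE factors and -0.00231 with limma-voom; Map1lc3a with genotype in controls was -0.00534 without the filter and -0.00573 without mitochondrial genes and Gm42418; Tfeb with running in WT was -0.0936 without FLExDUX4 control 1 and WT running 2. Atg10 with running averaged spread from -0.0307 (without WT control 2) to 0.517 (without WT control 1). No paired analysis was possible because the labels give the mice no shared replicate numbers.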
